A study of Mus musculus with 2 samples.

Results

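The genes described here are 10 of the angiotensin system and of the regulators that act behind its receptors, out of 32285 genes counted in cultured mouse aortic vascular smooth muscle cells (VSMCs). They were taken by symbol: the angiotensin II (AngII) receptor genes Agtr1a, Agtr1b and Agtr2, the precursor gene Agt, the converting enzyme gene Ace, the receptor-associated protein gene Agtrap, the regulators of G protein signaling Rgs2, Rgs4 and Rgs5, and the calcineurin regulator Rcan1. The data are 1 droplet library of primary cells from aortas of C57BL/6 mice, bought from suppliers and grown for no more than 3 passages on 6-well plates. The cells were young (12 weeks), old (58 to 78 weeks), young and treated with 100 nM AngII for 48 h, or old and transfected with Piezo1 siRNA, at 20 nM per the labels, although the study's text also gives a different dose. The cells of a group carry no mark of the culture they came from, so each group counted as 1 sample and no test between groups was possible. All 10 genes stayed in the account, and the question was whether the receptor for the AngII used in the study was kept in culture and how the genes behind it were set in each group.

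Angiotensinogen is cut by renin and then by angiotensin-converting enzyme to give AngII, which contracts arteries and makes VSMCs grow. In VSMCs AngII acts mainly through the type 1 receptor, which mice encode in a pair of genes, Agtr1a and Agtr1b. It couples to Gq, and the calcium that follows activates calcineurin and its target NFAT. The type 2 receptor, encoded by Agtr2, often opposes the type 1 receptor and is best known from fetal tissue and injured vessels. RGS proteins end the signal by speeding GTP hydrolysis on the G protein, Agtrap promotes internalisation of the type 1 receptor, and Rcan1 binds calcineurin and is itself a calcineurin and NFAT target gene.

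The cells of each group carried an antibody with a DNA tag (cell hashing) before mixing, and RNA molecules were counted by unique molecular identifiers (UMIs) read from their 3′ ends, which are not scaled by gene length. A barcode with at least 2218 gene UMIs and 200 genes was taken as a cell, which left 13045 cells with 115033686 UMIs and a median of 7915 UMIs. A cell received tag n where only that hashtag passed its cutoff. Tag 1 marked 3144 cells (median 6816.5 UMIs), tag 2 marked 497 (10663), tag 3 marked 1500 (9453.5) and tag 4 marked 1529 (9792), while 5307 cells (40.7%) had no tag and 1068 had more than 1. Neither the labels nor the study's text pair tags with groups. The names young (tag 1), old (tag 2), young + AngII (tag 3) and old, labelled siPiezo1 (tag 4) rest on numbers in a schematic that are not called tag numbers there, so the tag stays beside each value. Piezo1, the siRNA target, was at 89.6 CPM (82.0 to 97.9) for tag 2 and 86.9 (82.4 to 91.5) for tag 4, and so does not check the label of tag 4. CPM is the UMIs of a gene per 1000000 UMIs of the tag's cells, and every interval given is a 95% interval of counting error only.

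The groups differed in more than age and treatment. Xist, transcribed in female cells, was at 113 CPM in tag 1, 118 in tag 3, 636 in tag 2 and 768 in tag 4. The summed level of 6 interferon response markers was 2646 CPM in tag 1 against 72.6 to 270 in the other tags, and 2271 of the 3144 cells of tag 1 lay in clusters 2 and 7, where all 6 of these markers were at least 2-fold above other cells. Cluster 10, where the same held, had another 173 cells of tag 1. The 9 VSMC markers were all detected, from Tagln at 608 CPM and Acta2 at 339 to Myh11 at 4.41 and Des at 1.51 over all cells. They summed to 909, 1720, 1089 and 691 CPM in tags 1 to 4. The 7 fibroblast markers summed to 765 to 1112 CPM by tag, and the 7 pericyte markers to 47.0 to 94.4. Endothelial markers summed to 10.1 to 18.5 CPM with Tie1 at 0, and macrophage markers to 6.15 to 11.7 CPM with C1qa at 0. Their part in the values below was not tested, and what age, sex, culture and treatment each add cannot be told apart.

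The promoters of the genes that carry the patterns below are shown first, as the 250 bases before the start on the gene's own strand, from RefSeq on GRCm38.p6. Capitals mark matches, on either strand, to GGAAA (the core of NFAT sites), TGACGTCA (the cAMP response element), TGANTCA (the AP-1 element) and TATAAA. These 4 strings were found in 55.6%, 1.55%, 6.75% and 12.4% of 32851 promoters of the same length, and none overlapped another in the members. Agtr1b is shown with chr3:20367178-20367427 on the minus strand, Agtr2 with chrX:21484374-21484623 on the plus strand and Rgs5 with chr1:169655251-169655500 on the plus strand. The GENCODE span of Agtr2 starts at 21484544, so the end of its stretch, with the last GGAAA, lies inside that span. Rcan1 has 2 RefSeq starts here, with chr16:92466170-92466419 (upstream) and chr16:92400079-92400328 (downstream) before them, both on the minus strand. The GENCODE span of Rcan1 reaches 92470867, so both stretches lie inside it and a further start is not covered.
Agtr1b: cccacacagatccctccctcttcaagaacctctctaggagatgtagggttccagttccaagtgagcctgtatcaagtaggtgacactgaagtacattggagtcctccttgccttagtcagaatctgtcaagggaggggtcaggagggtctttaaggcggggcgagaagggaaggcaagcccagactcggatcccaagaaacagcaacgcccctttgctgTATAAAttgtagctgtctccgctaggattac
Agtr2: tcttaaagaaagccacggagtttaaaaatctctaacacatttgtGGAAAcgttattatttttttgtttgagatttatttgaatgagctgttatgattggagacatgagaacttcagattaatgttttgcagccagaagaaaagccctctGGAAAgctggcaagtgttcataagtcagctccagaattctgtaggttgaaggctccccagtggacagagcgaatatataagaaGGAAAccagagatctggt
Rgs5: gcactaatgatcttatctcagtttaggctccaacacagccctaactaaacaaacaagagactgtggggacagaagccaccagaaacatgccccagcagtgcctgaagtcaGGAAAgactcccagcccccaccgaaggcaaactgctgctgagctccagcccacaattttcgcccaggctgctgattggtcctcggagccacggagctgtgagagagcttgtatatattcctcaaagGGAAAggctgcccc
Rcan1, upstream start: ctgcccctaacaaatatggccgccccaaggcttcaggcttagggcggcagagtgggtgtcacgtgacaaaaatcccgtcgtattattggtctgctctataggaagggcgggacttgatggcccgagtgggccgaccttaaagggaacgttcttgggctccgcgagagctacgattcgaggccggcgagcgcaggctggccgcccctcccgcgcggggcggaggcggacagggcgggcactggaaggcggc
Rcan1, downstream start: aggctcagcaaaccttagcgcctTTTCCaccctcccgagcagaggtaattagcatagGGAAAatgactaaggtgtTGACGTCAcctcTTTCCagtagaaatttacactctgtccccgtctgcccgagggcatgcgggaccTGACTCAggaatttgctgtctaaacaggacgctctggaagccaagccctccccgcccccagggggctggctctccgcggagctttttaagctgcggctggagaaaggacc

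The downstream Rcan1 promoter held 3 GGAAA, 1 TGACGTCA and 1 TGANTCA, and the upstream one held none of the strings. At least 3 matches to GGAAA were found in 6.39% of all promoters. Among the 11 promoters of the 9 members with an entry they were found in those of Agtr2 and the downstream start of Rcan1. For Agtr2 this count depends on the RefSeq start. Rgs5 held 2 matches to GGAAA and the other members none. TATAAA was found before Agtr1b, Agt, Rgs4 and the upstream start of Ace. The CArG box, the binding site of serum response factor in smooth muscle genes, was found in none of the 11 and in 1.47% of all promoters. A match to such a string is a description of the sequence. The UMIs come from the 3′ ends of transcripts, which both Rcan1 starts shown can share, so the level of Rcan1 was not divided between them.

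The type 1 receptor was kept in culture only as a rare transcript, and almost all of it came from Agtr1b. Agtr1a (GRCm38 13:30336441-30382867, plus strand, the form that leads in most mouse tissues) gave 21 UMIs in 20 of 13045 cells, or 0.183 CPM (0.113 to 0.279). It had 6 UMIs in tag 1, 0 in tag 2, 2 in tag 3 and 4 in tag 4, or 0.249, 0, 0.134 and 0.248 CPM. The 0 UMIs of tag 2 allow a level of up to 0.538 CPM (3 counts), so no order among the tags was detectable at this depth. Free RNA, taken as 5.65% of a cell's UMIs with the profile of near-empty barcodes, would add 0.0270 CPM and at its counting limit 0.150 CPM. In the annotation Agtr1a overlaps Gm48161 on the same strand, and reads could be divided between them.

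Agtr1b (3:20314473-20367177, minus strand) gave 220 UMIs in 190 cells, 1.91 CPM over all cells. It was at 3.48 CPM (2.78 to 4.31; 84 UMIs) in the young cells of tag 1 and at 2.95 CPM (2.14 to 3.96; 44 UMIs) in the AngII-treated cells of tag 3. The old cells of tag 2 had 0.896 CPM (0.291 to 2.09; 5 UMIs) and those of tag 4 had 1.06 CPM (0.615 to 1.69; 17 UMIs). Tags 1 and 3 were the high pair and tags 2 and 4 the low pair, with intervals that overlapped within each pair and not between tags 1 and 2. The ratio of tag 2 to tag 1 was 0.257 (0.0815 to 0.625), that of tag 3 to tag 1 was 0.846 (0.574 to 1.23) and that of tag 4 to tag 2 was 1.18 (0.417 to 4.08). With each cell thinned to 5000 UMIs, 1.79% of the cells of tag 1, 1.61% of tag 3, 0.636% of tag 4 and 0 of 476 cells of tag 2 held an Agtr1b UMI, and a count of 0 there allows up to 0.630%. As counted, the shares were 2.19%, 2.53%, 1.05% and 1.01%.

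Agtr2 (X:21484544-21489164, plus strand) ran the other way. It was at 1.87 CPM (1.36 to 2.50; 45 UMIs) for tag 1 and 0.536 CPM (0.231 to 1.06; 8 UMIs) for tag 3. It was at 5.74 CPM (3.92 to 8.10; 32 UMIs) for tag 2 and 3.97 CPM (3.06 to 5.07; 64 UMIs) for tag 4. The old tags were above the young tags, and the AngII-treated cells were lowest. The ratio was 3.08 (1.89 to 4.95) for tag 2 against tag 1, 0.287 (0.117 to 0.615) for tag 3 against tag 1 and 0.693 (0.446 to 1.09) for tag 4 against tag 2. Cells without a tag had 6.06 CPM (5.33 to 6.86), with 249 of all 430 Agtr2 UMIs, and the 7 cells with 5 or more Agtr2 UMIs were all among them. With clusters 2 and 7 left out, the ratio of tag 2 to tag 1 was 1.49 (0.884 to 2.49), and that of tag 3 to tag 1 was 0.139 (0.0554 to 0.307). That setting, chosen after seeing the data, left 873 cells of tag 1, of which 57.0% were called doublets.

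**Figure D1:**
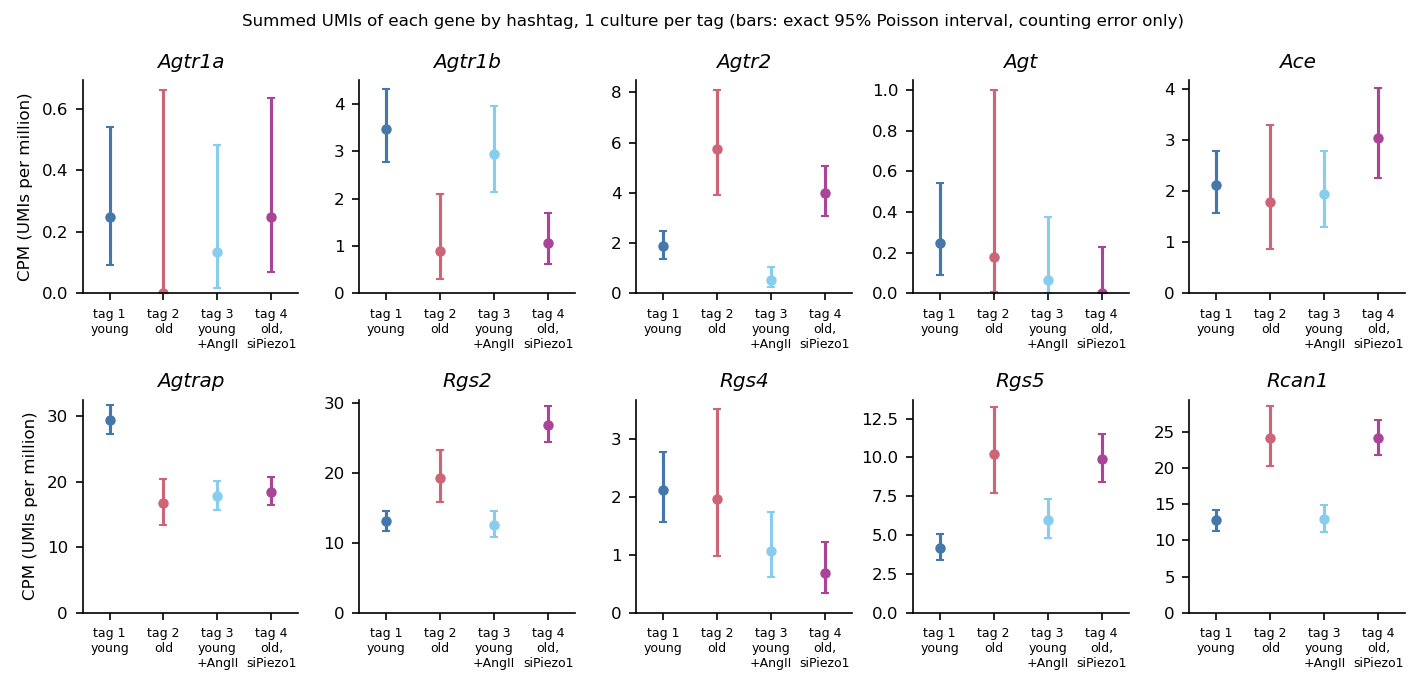
The level of each of the 10 genes (CPM, linear axes from 0 that differ between panels) in tags 1 to 4, as points with exact 95% Poisson intervals of the summed UMIs. Agtr1b is high in tags 1 and 3 (3.48 and 2.95 CPM), whereas Agtr2, Rgs5 and Rcan1 are high in tags 2 and 4, with Rcan1 at 24.2 CPM in both.

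Set against each other over all cells of a tag, the receptor UMIs of the young and old tags had opposite make-ups. Agtr2 held 34.9% (26.7 to 43.8) of 129 Agtr1b and Agtr2 UMIs in tag 1 and 15.4% (6.88 to 28.1) of 52 in tag 3. It held 86.5% (71.2 to 95.5) of 37 UMIs in tag 2, 79.0% (68.5 to 87.3) of 81 in tag 4 and 83.8% (79.1 to 87.8) of 297 in cells without a tag. Both old tags lay above both young tags with no overlap of the intervals. Without called doublets the shares were 32.2%, 7.69%, 90.6% and 82.5% in tags 1, 3, 2 and 4. In cells with UMIs of Y-linked genes but none of Xist they were 28.9%, 9.09% and 88.9% (of 9 UMIs) for tags 1, 3 and 2, and Agtr2 held 6 of 12 UMIs for tag 4 (21.1% to 78.9%). In cells with Xist and no UMI of a Y-linked gene Agtr2 held 9 of 12 UMIs for tag 1 (42.8% to 94.5%), 2 of 3 for tag 3 (9.43% to 99.2%), 12 of 15 for tag 2 (51.9% to 95.7%) and 47 of 55 for tag 4 (73.3% to 93.5%). All 4 of these intervals overlapped, so the opposite make-up of young and old tags was not seen in the Xist cells. These cells were 4.90% of tag 1 and 6.27% of tag 3, and whether free RNA, doublets or wrong tags placed them there was not tested. After removal of clusters 2 and 7, the share in tag 1 was 58.9% (45.0 to 71.9) of 56 UMIs. That interval overlapped those of both old tags, so the opposite make-up was not seen for tag 1 in this setting. A UMI of any of the 3 receptor genes was seen in 509 cells (3.90%). Agtr1b was seen in 190 cells, Agtr2 in 306 and both in 6, of which 33.3% were called doublets. With so few positive cells, few would hold both in any case, and whether the 2 receptors exclude each other was not tested.

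**Figure D2:**
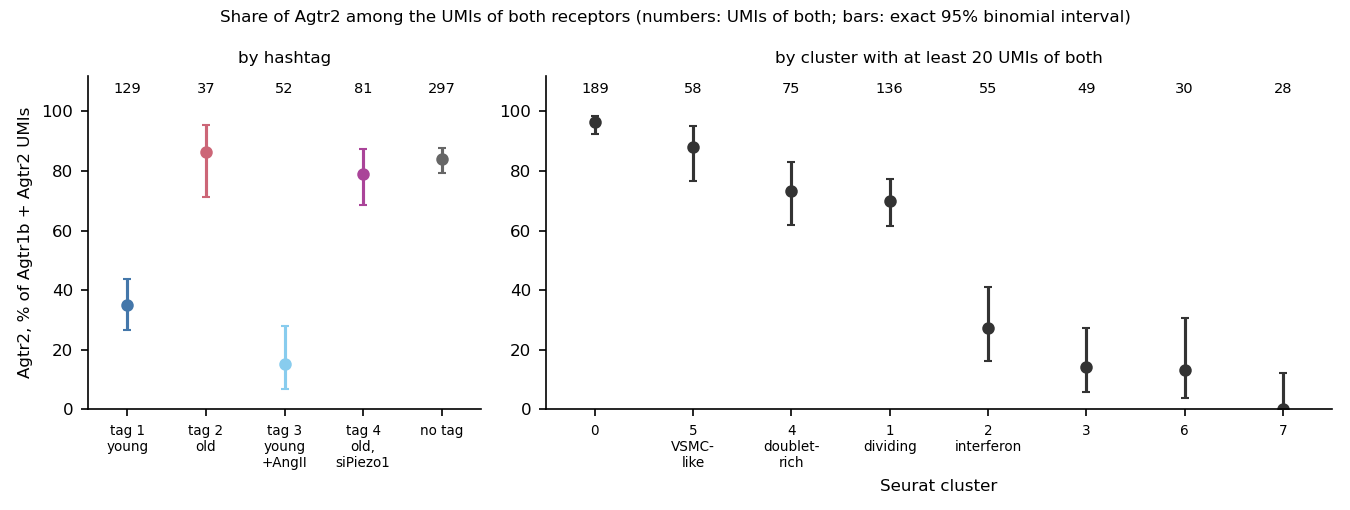
Agtr2 as a percentage of Agtr1b and Agtr2 UMIs (y axis), by hashtag on the left and by Seurat cluster with at least 20 such UMIs on the right, with exact 95% binomial intervals and the number of UMIs above each point. The share is 86.5% and 79.0% in tags 2 and 4 against 34.9% and 15.4% in tags 1 and 3, and runs from 96.3% in cluster 0 to 0% in cluster 7.

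On the ligand side Agt and the renin gene were close to silent in these cells, whereas Ace was at 2.66 CPM over all cells. Agt (8:124556534-124569706, minus strand) gave 10 UMIs in all, with 6, 1, 1 and 0 in tags 1 to 4, or 0.249, 0.179, 0.067 and 0 CPM. Renin (Ren1), which starts the cascade, gave 2 UMIs, both in 1 cell of tag 1. Ace (11:105967945-105989964, plus strand), which makes AngII from its inactive precursor, was at 2.11 CPM (1.57 to 2.78) for tag 1, 1.79 (0.860 to 3.3) for tag 2, 1.94 (1.30 to 2.79) for tag 3 and 3.04 (2.25 to 4.02) for tag 4. All of these intervals overlapped, and the ratio of tag 4 to tag 2 was 1.70 (0.849 to 3.76). Free RNA would add 0.162 CPM to Ace.

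Agtrap (4:148077061-148088031, minus strand) had the highest level of the 10 genes over all cells and in tags 1 and 3, whereas Rcan1 and Rgs2 were above it in tags 2 and 4. It was at 29.4 CPM (27.3 to 31.6; 709 UMIs) for tag 1, 16.7 (13.5 to 20.4; 93 UMIs) for tag 2, 17.8 (15.7 to 20.1; 266 UMIs) for tag 3 and 18.5 (16.5 to 20.7; 298 UMIs) for tag 4. Tag 1 stood above the other 3 tags, whose intervals overlapped. The ratio was 0.606 (0.524 to 0.699) for tag 3 against tag 1 and 0.567 (0.452 to 0.705) for tag 2 against tag 1. In tag 1 it was at 35.4 CPM (32.0 to 39.0) in the interferon response-like cluster 2 and 31.2 (26.2 to 37.0) in cluster 7. Without these clusters tag 1 was at 20.6 CPM, and the ratios were 0.866 (0.713 to 1.05) and 0.809 (0.623 to 1.05), so that neither passed 1.5-fold.

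Among the RGS genes, Rgs2 (1:143999338-144004161, minus strand), which acts mainly on Gq, was the most abundant. Its levels were 13.1 CPM (11.7 to 14.6) for tag 1, 12.6 (10.9 to 14.5) for tag 3, 19.4 (15.9 to 23.4) for tag 2 and 26.9 (24.5 to 29.6) for tag 4. The young tags did not differ beyond counting error, and tag 4 was above all others. The ratio was 1.39 (1.12 to 1.73) for tag 4 against tag 2, 1.48 (1.18 to 1.84) for tag 2 against tag 1 and 0.961 (0.798 to 1.15) for tag 3 against tag 1. Tag 4 stayed above tag 2 under all 14 settings tried, from 1.26 to 1.71. In cells outside clusters 2 and 7, tag 1 was at 20.7 CPM and the ratio of tag 3 to tag 1 was 0.608 (0.493 to 0.751), past 1.5-fold. Of the 177 Rgs2 UMIs left in tag 1, 46 lay in 139 cells of cluster 11, and 57.0% of the 873 cells left were called doublets. In those cells of cluster 11 Rgs2 was at 39.9 CPM (29.2 to 53.2), above the 20.7 CPM of all the cells kept. A ratio without them, or without the doublets, was not computed. The call past 1.5-fold is therefore not to be read as holding without cluster 11. Without clusters 2 and 7 the ratio of tag 2 to tag 1 was 0.935 (0.729 to 1.19), so the old cells of tag 2 were then not above tag 1.

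Rgs5 (1:169655501-169695813, plus strand), known as a marker of pericytes and of arterial smooth muscle in the vessel wall, was at 4.19 CPM (3.41 to 5.09) for tag 1 and 5.96 (4.79 to 7.33) for tag 3. It was at 10.2 CPM (7.74 to 13.2) for tag 2 and 9.87 (8.40 to 11.5) for tag 4. The old tags overlapped each other and lay above both young tags. The ratio of tag 2 to tag 1 was 2.44 (1.73 to 3.41), and 1.18 (0.820 to 1.69) without clusters 2 and 7. Tag 3 against tag 1 gave 1.42 (1.06 to 1.91), but 2.48 without called doublets and 0.689 (0.500 to 0.951) without clusters 2 and 7, so the direction turned with the cells kept. Its UMIs were concentrated: 25 cells with 5 or more held 223 of 877 UMIs (25.4%), up to 46 in 1 cell, and 14 of the 25 lay in cluster 0. Rgs4 (1:169741477-169747642, minus strand) lies 45663 bases from Rgs5. It was at 2.11 CPM (1.57 to 2.78) for tag 1, 1.97 (0.985 to 3.53) for tag 2, 1.07 (0.612 to 1.74) for tag 3 and 0.683 (0.341 to 1.22) for tag 4. Each treated tag was below its untreated partner, at 0.507 (0.270 to 0.903) for tag 3 against tag 1 and 0.346 (0.136 to 0.881) for tag 4 against tag 2, on 11 to 51 UMIs per tag. Without clusters 2 and 7 the Rgs4 ratio of tag 3 to tag 1 was 0.509 (0.243 to 1.06), an interval that holds 1. The 11 UMIs of tag 2 lay in 7 cells, with 4 in 1 cell, and the intervals take no account of such clumping.

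Rcan1 (16:92391953-92470867, minus strand) was higher in both old tags than in both young tags over all cells of a tag. It was at 12.8 CPM (11.4 to 14.3) for tag 1 and 13 (11.2 to 15.0) for tag 3, against 24.2 (20.3 to 28.6) for tag 2 and 24.2 (21.8 to 26.7) for tag 4. The ratio of tag 2 to tag 1 was 1.90 (1.54 to 2.33). The ratio was 1.02 (0.846 to 1.22) for tag 3 against tag 1 and 0.998 (0.818 to 1.22) for tag 4 against tag 2, so that a difference past 1.5-fold lay outside both intervals. With clusters 2 and 7 left out, tag 1 was at 17.7 CPM, and the ratios to it were 1.37 (1.08 to 1.74) for tag 2 and 0.736 (0.592 to 0.916) for tag 3, so that the 2 young tags then differed beyond counting error. Near-empty barcodes held 26.2 CPM of Rcan1, and free RNA would add 1.48 CPM to each tag.

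**Figure D3:**
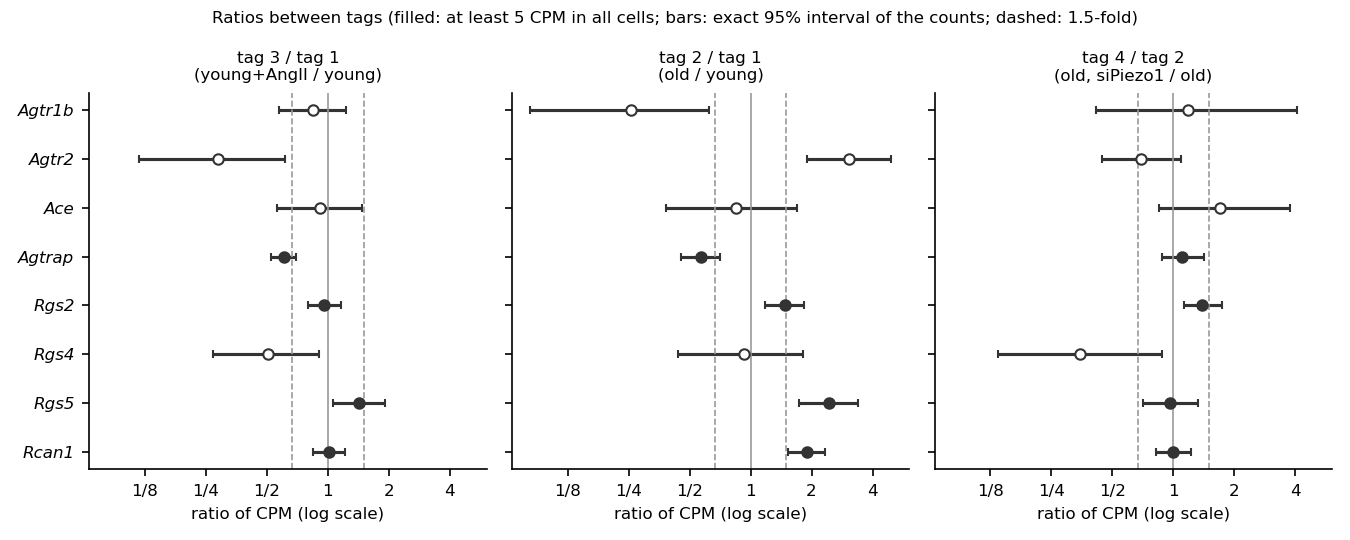
Ratios of CPM between tags (log axis) for the 8 genes with enough UMIs, with exact 95% intervals, in the 3 comparisons of the design. Filled points have at least 5 CPM in all cells, and dashed lines mark 1.5-fold. Old against young gives Agtr2 at 3.08 and Agtr1b at 0.257, whereas old, labelled siPiezo1 against old lies within 1.5-fold for every filled point.

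By a rule of size in place of a test, a gene was counted where its ratio passed 1.5-fold in either direction and its level over all cells was at least 5 CPM. Agtrap, Rgs2, Rgs5 and Rcan1 met that minimum. For tag 3 against tag 1, 0 of the 4 were higher (7.45% of 10265 genes) and 1 was lower, Agtrap (8.48%). For tag 2 against tag 1, 2 of 4 were higher, Rgs5 and Rcan1 (9.39%), and 1 was lower, Agtrap (10.9%). For tag 4 against tag 2, 0 of 4 were higher (2.88%) and 0 lower (1.52%). The median log2 ratio of the 4 was -0.02, 0.74 and 0.07 in these comparisons, beside 0.04, 0.03 and 0.02 over all 10265 genes. After removal of clusters 2 and 7, tag 2 against tag 1 had 0 of 4 in either direction, beside 3.31% of genes higher and 9.27% lower. In that setting tag 3 against tag 1 had 0 higher (3.99%) and 1 lower, Rgs2 (9.62%), with the limit on the remaining cells of tag 1 given above. The other 6 members were under 5 CPM, where passing 1.5-fold is common. Of 3177 genes with 1 to 5 CPM, 25.0% were higher and 24.1% lower for tag 2 against tag 1, 15.1% and 23.6% for tag 3 against tag 1, and 18.0% and 15.3% for tag 4 against tag 2.

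With each cell thinned to 5000 UMIs, the share of cells with a UMI followed the CPM for Agtrap, Rgs2 and Rcan1, and less closely for Rgs5. Agtrap was seen in 14.2% (12.9 to 15.7) of 2397 cells of tag 1 and in 8.58% to 8.83% of the cells of the other tags. Rcan1 was seen in 5.13% and 5.50% of the cells of tags 1 and 3 and in 11.8% and 10.5% of those of tags 2 and 4. Rgs2 was seen in 12.2% (10.5 to 14.0) of the cells of tag 4 and 7.77% (5.53 to 10.6) of those of tag 2. Rgs5 was seen in 1.54% (1.09 to 2.12) and 1.76% (1.13 to 2.61) of the cells of tags 1 and 3, but in 5.25% (3.43 to 7.66) of those of tag 2 against 3.18% (2.33 to 4.23) of those of tag 4, which had nearly the same CPM. Thinning left out 747 shallow cells of tag 1, 21 of tag 2 and 136 of tag 3. Before thinning the Agtrap shares were 19.8% in tag 1 and 15.3% to 17.6% in the other tags.

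**Figure D4:**
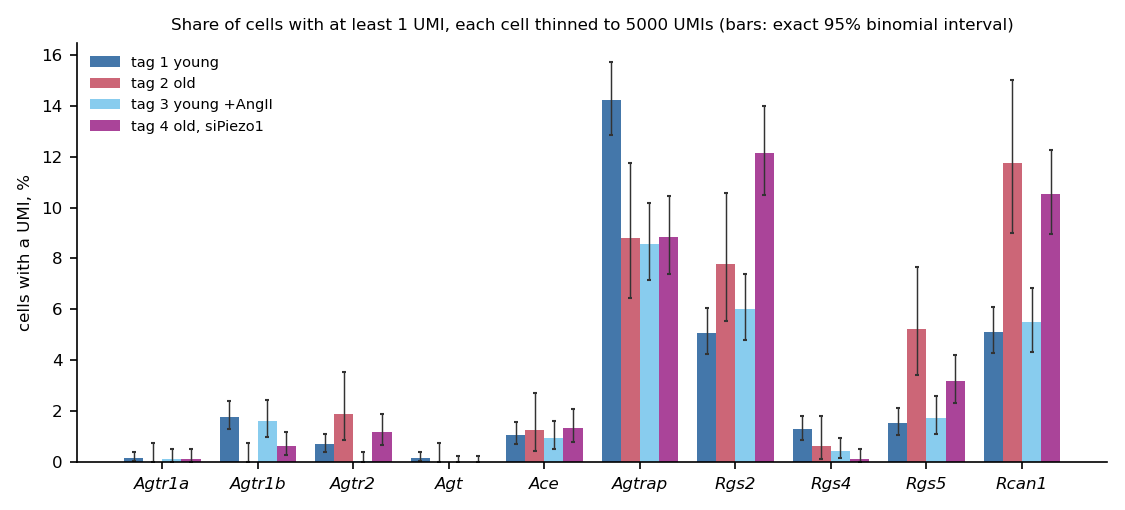
Share of cells with at least 1 UMI of each gene (bars from 0, with exact 95% binomial intervals) in tags 1 to 4, each cell thinned to 5000 UMIs. Agtrap is highest in tag 1 (14.2%), Rgs2 in tag 4 (12.2%), and Rcan1 is near 11% in both old tags (11.8% and 10.5%).

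The rest of the pathway was taken from lists chosen with earlier results of these data known. Each count below stands beside the share of all 10265 genes tested, 7.45% higher and 8.48% lower for tag 3 against tag 1. The shares were 9.39% and 10.9% for tag 2 against tag 1, and 2.88% and 1.52% for tag 4 against tag 2. Without clusters 2 and 7 they were 3.99% and 9.62% for tag 3, and 3.31% and 9.27% for tag 2, each against tag 1. Of 15 other genes of the angiotensin system 6 reached 5 CPM, led by Lnpep, an aminopeptidase that binds angiotensin IV, at 101 CPM and the prorenin receptor gene Atp6ap2 at 49.9 CPM. Mas1, the receptor for angiotensin 1-7, was at 0.0695 CPM over all cells, with 3 UMIs in tag 1, 1 in tag 4 and 0 in tags 2 and 3, too few to order the tags. Thop1, a peptidase that makes angiotensin 1-7, was the 1 gene of the list past 1.5-fold, at 1.88 (1.60 to 2.22) for tag 3 against tag 1 and 1.69 (1.34 to 2.12) for tag 2 against tag 1, with 0 in tag 4 against tag 2 and the same counts without clusters 2 and 7. Of 27 genes of Gq and G12/13 signalling and receptor desensitisation 23 reached 5 CPM. In tag 3 against tag 1, 3 were higher, among them the receptor kinase gene Grk6 at 1.80 (1.55 to 2.09), and 1 was lower, the phospholipase gene Plcb4 at 0.639 (0.568 to 0.717). In tag 2 against tag 1, 1 was higher and 2 were lower, with Grk5 at 0.355 (0.307 to 0.408), and in tag 4 against tag 2 none of the 23 passed 1.5-fold in either direction. Of 10 calcineurin and NFAT genes at 5 CPM or more, Nfatc4 was lower in tag 3 against tag 1 at 0.544 (0.431 to 0.680), Rcan2 was higher in tag 2 against tag 1 at 1.55 (1.21 to 1.97), and 0 of 10 passed in tag 4 against tag 2. In cells outside clusters 2 and 7, the Gq list had 2 genes higher (Itpr1 and Prkcd) and 1 lower (Plcb1) for tag 3, so that neither Grk6 nor Plcb4 still passed. For tag 2 it had 0 higher and 2 lower (Grk5 and Plcb4), and Rcan2 no longer passed. For tag 3 the calcineurin and NFAT list then had 1 gene higher, Rcan3, and 1 lower, Nfatc4. Prkcd and Plcb1 were named after their values were seen.

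The other RGS genes were counted in the same way. Of 9 at 5 CPM or more, 4 were higher and 0 lower in tag 3 against tag 1 (beside 7.45% and 8.48% of all genes tested), namely Rgs6 at 2.99 (2.32 to 3.88), Rgs20 at 2.45 (1.79 to 3.36), Rgs7 at 1.64 (1.12 to 2.42) and Rgs12 at 1.62 (1.41 to 1.87). In tag 2 against tag 1, 5 were higher and 1 lower (beside 9.39% and 10.9%), led by Rgs7 at 4.25 (2.87 to 6.28), Rgs20 at 3.95 (2.77 to 5.63) and Rgs16 at 2.70 (2.28 to 3.19), with Rgs10 at 0.583 (0.463 to 0.725). With clusters 2 and 7 left out, the counts were 1 and 0 for tag 3 against tag 1 (beside 3.99% and 9.62% of genes), with Rgs6 the gene left. For tag 2 against tag 1 they were 3 and 1 (beside 3.31% and 9.27%), with Rgs7, Rgs16 and Rgs20 higher and Rgs6 in place of Rgs10 lower. In tag 4 against tag 2 the 1 gene past 1.5-fold was Rgs6, lower at 0.346 (0.166 to 0.722). Rgs6 and Rgs7 act mainly in neurons and heart, and Rgs16 is an inducible member that acts on Gi and Gq.

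Of the genes known to be induced by AngII, 16 were measured at 5 CPM or more. In the AngII-treated cells of tag 3 against tag 1, 6 were higher and 3 lower (beside 7.45% and 8.48% of all genes tested). The growth factor gene Hbegf was at 170 against 46.4 CPM, a ratio of 3.67 (3.42 to 3.94). The matricellular gene Ccn2 was at 365 against 163 CPM, a ratio of 2.25 (2.15 to 2.34). Also higher were Tgfb1 at 1.99 (1.76 to 2.24), Nr4a2 at 1.96 (1.73 to 2.22) and Ereg at 1.90 (1.83 to 1.97), calls lost without clusters 2 and 7. After 48 h of AngII the early response gene Fos was lower at 0.365 (0.333 to 0.40), as were Jun at 0.540 (0.502 to 0.581) and Edn1 at 0.599 (0.505 to 0.708). Tgfb1, Nr4a2, Ereg, Jun and Edn1 were named here after their values were seen. With 1 sample a group these ratios compare 2 pools of cells, and the median log2 ratio of the list was 0.28 beside 0.04 over all genes. After removal of clusters 2 and 7, 3 were higher (3.99% of genes), Hbegf and Ccn2 among them, and 2 were lower (9.62%), Fos and Jun. In tag 2 against tag 1, 4 were higher and 5 lower (beside 9.39% and 10.9%). The nuclear receptor gene Nr4a2 was at 2.83 (2.43 to 3.28) and Ccn2 at 0.453 (0.408 to 0.502). Without clusters 2 and 7 the counts for tag 2 against tag 1 were 1 and 4 (beside 3.31% and 9.27%). In tag 4 against tag 2, 0 were higher and 2 lower (beside 2.88% and 1.52%). The 2 were Edn1 at 0.453 (0.311 to 0.663) and Ccn2 at 0.620 (0.549 to 0.701).

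Some receptors for other vasoactive ligands were above those for AngII and others below. Of 25 such genes 8 reached 5 CPM, among them the serotonin receptor gene Htr2a at 78.2 CPM over all cells, the thrombin receptor gene F2r at 54.2 and the adenosine receptor gene Adora2b at 39.5, whereas Agtr2 was at 3.74, Agtr1b at 1.91 and Agtr1a at 0.183. The endothelin receptor genes Ednra and Ednrb, at 1.78 and 0.678 CPM, were below Agtr1b. In tag 3 against tag 1, 2 of the 8 were higher and 1 lower (beside 7.45% and 8.48% of all genes tested). Htr1b was higher at 3.06 (2.50 to 3.77) and S1pr1, a sphingosine 1-phosphate receptor gene, at 2.16 (1.81 to 2.58). S1pr3 was lower at 0.437 (0.390 to 0.488), a call lost without clusters 2 and 7. In tag 2 against tag 1, 4 were higher and 1 lower (beside 9.39% and 10.9%). Among those higher were P2ry2 at 2.11 (1.40 to 3.13), Htr1b at 2.10 (1.56 to 2.81) and Htr2a at 1.76 (1.59 to 1.95). S1pr3 was lower at 0.322 (0.263 to 0.391). For tag 2 against tag 1 it was the 1 gene of the list that passed without clusters 2 and 7. In tag 4 against tag 2, 0 of 8 passed 1.5-fold (beside 2.88% higher and 1.52% lower). The oxytocin receptor gene Oxtr was at 0 in tags 2, 3 and 4, beside 1 UMI in tag 1. The adrenergic receptor gene Adra1d was at 0 in tags 2 and 4, beside 6 UMIs in tag 1 and 3 in tag 3. These counts are too low to order the tags.

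Clustering without the 10 genes gave 13 clusters, and the tags were spread over them very unevenly. Tag 1 made up 99.8% of the singly tagged cells of cluster 2 (interferon response-like, led by Ifit3, Ifit3b and Rsad2) and 100% of those of cluster 7 (led by Cdkn3 and Ckap2l). Tag 3 made up 88.1% in cluster 3 (led by Lce1g, Wnt2 and Serpinb2) and 86.7% in cluster 6 (led by Ccne2 and Slfn9). Tag 4 made up 64.6% and tag 2 25.8% in cluster 0 (led by Igfbp5, Nxph1 and Clu). Differences between clusters and between tags therefore overlap, and 81.4% of the cells of cluster 4 were called doublets. Clusters 1 (dividing cell-like), 5 (VSMC-like, led by Myh11, Actg2 and Cnn1) and 10 (mesothelial or epithelial-like) carried names from the marker lists.

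The receptors marked different clusters. Agtr2 was highest in cluster 0 at 9.49 CPM (182 UMIs), followed by the VSMC-like cluster 5 at 6.44 (51) and the dividing cell-like cluster 1 at 4.84 (95), and had 0 UMIs in the 570 cells of cluster 7. Of the 7 cells with 5 or more Agtr2 UMIs, 4 were in cluster 5. By share of cells with an Agtr2 UMI, cluster 5 (3.38%) was not above cluster 1 (3.52%), beside 5.19% in cluster 0. Agtr1b was highest in cluster 7 at 6.00 CPM (28 UMIs), followed by cluster 6 at 3.55 (26) and cluster 2 at 3.16 (40), and was at 0.365 CPM (7) in cluster 0. Agtr2 thus held 96.3% (92.5 to 98.5) of the UMIs of both receptors in cluster 0 and 0% (0 to 12.3) of 28 in cluster 7. Dividing markers were at least 2-fold above other cells for 8 of 8 in cluster 1 and 6 of 8 in cluster 7, and Agtr2 held 69.9% (61.4 to 77.4) in the former. Within cluster 0 the Agtr2 level was 9.18 CPM (5.44 to 14.5) for tag 2, 6.78 (4.70 to 9.48) for tag 4 and 20.8 (9.51 to 39.5) in the 51 cells of tag 1, so that the level in cluster 0 was not lower in tag 1 than in the old tags.

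Rgs5 and Rcan1 also peaked in cluster 0. Rgs5 was at 18.8 CPM there (361 of 877 UMIs), against 9.02 in cluster 1, 3.41 in the VSMC-like cluster 5 and 1.58 in cluster 2. Rcan1 was at 28.1 CPM in cluster 0, 26.1 in cluster 9 and 8.79 in cluster 7. Rgs2 was at 31.9 CPM in cluster 11, 31.4 in cluster 9 (95.6% tag 4, led by Lmo7) and 24.8 in cluster 0, and at 8.05 in cluster 2. In cluster 11 its 51 UMIs lay in 9.24% of the cells, whereas 19.0% of the cells of cluster 9 held one. Of the 10 cells with 5 or more Rgs2 UMIs, 3 were in cluster 11. Ace was at 4.65 and 4.64 CPM in clusters 6 and 0. Agtrap peaked at 34.7 CPM in cluster 2 and 31.1 in cluster 7, against 14.9 to 22.7 in the other clusters with at least 20 UMIs. Cluster 10, which also had all 6 interferon response markers at least 2-fold above other cells, was among the latter, at 22.7 CPM.

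**Figure D5:**
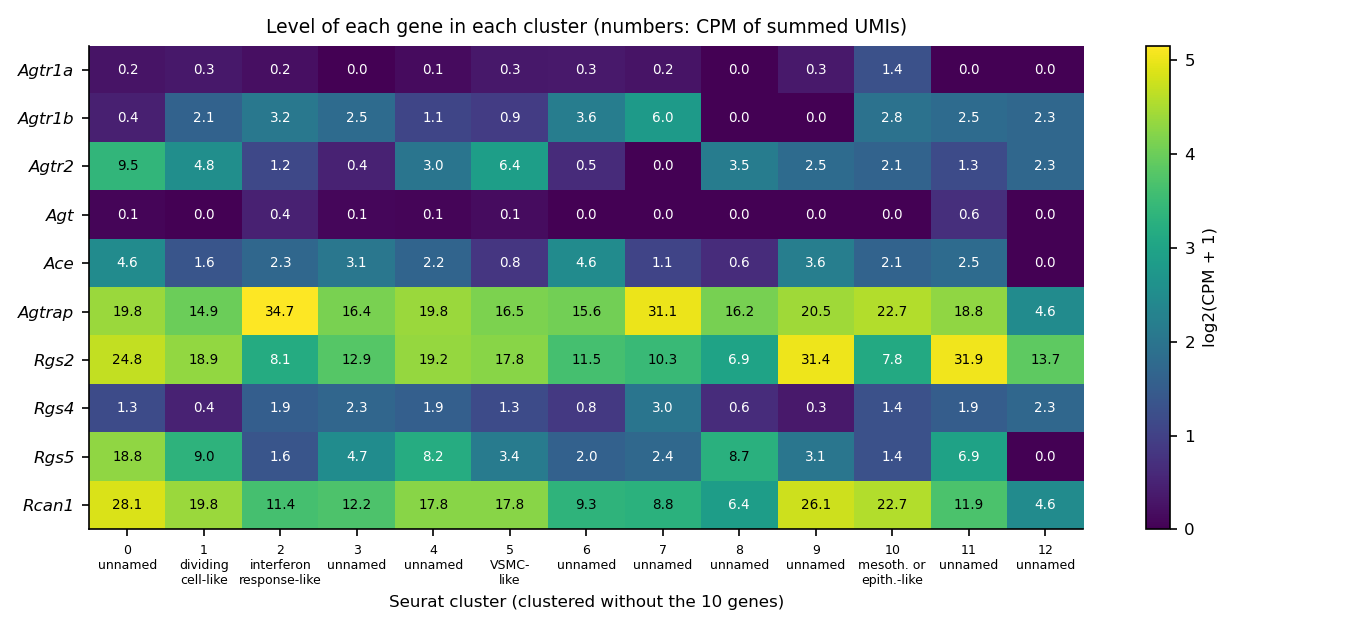
Levels of the 10 genes (rows) in the 13 Seurat clusters (columns), coloured by log2(CPM + 1) with the CPM printed in each cell. Agtr2, Rgs5 and Rcan1 peak in cluster 0 (9.49, 18.8 and 28.1 CPM), Agtr1b in cluster 7 (6.00) and Agtrap in clusters 2 and 7 (34.7 and 31.1).

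Comparisons within a cluster were possible where 2 tags shared it. In cluster 0, tag 4 against tag 2 gave 1.48 (1.05 to 2.13) for Rgs2, 0.828 (0.618 to 1.12) for Rcan1 and 1.41 (0.921 to 2.23) for Rgs5. In cluster 1 it gave 1.33 (0.825 to 2.22) for Rgs2, 1.60 (1.03 to 2.56) for Rcan1 and 0.40 (0.210 to 0.773) for Rgs5, and in cluster 5 1.47 (0.875 to 2.52) for Rgs2. Rgs2 was thus higher in tag 4 in each of the 3 clusters, beyond counting error in cluster 0, while Rcan1 and Rgs5 lay on different sides of 1 in clusters 0 and 1. In cluster 3, tag 3 against tag 1 gave 1.17 (0.293 to 10.2) for Agtr1b on 26 and 2 UMIs, 0.752 (0.453 to 1.33) for Agtrap and 3.48 (1.16 to 17.1) for Rcan1 on 116 and 3 UMIs. In cluster 4 the same comparison gave 0.819 (0.523 to 1.25) for Rcan1 and 1.65 (1.01 to 2.69) for Rgs5. Tag 2 against tag 1 could be compared in cluster 0, with 51 cells of tag 1, and gave 0.363 (0.192 to 0.708) for Rgs5, 0.441 (0.188 to 1.12) for Agtr2, 0.558 (0.312 to 1.04) for Rgs2 and 0.896 (0.521 to 1.62) for Rcan1. All 4 lay below 1 there, Rgs5 beyond counting error, whereas over all cells of the tags the same 4 ratios were above 1. The tag 1 side held 17 UMIs of Rgs5 and 9 of Agtr2. The intervals take no account of clumping, and 14 of the 25 cells with 5 or more Rgs5 UMIs lay in this cluster. Whether doublets or wrong tags placed these cells of tag 1 in cluster 0 was not tested.

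Across the 13 clusters, the genes whose log2(CPM + 1) was most like that of each member, among 6342 genes, were named with no test, since the clusters share 1 library and differ in depth. Each cluster counted equally, also cluster 12 with 86 cells. It held 2 UMIs of Agtrap (4.58 CPM, 0.554 to 16.5), 2 of Rcan1 and 0 of Rgs5. How far r rests on these values near the floor was not tested. Agtrap was most like Prelid2 (Pearson r = 0.973), Mvb12a (0.961) and Tspan31 (0.951). Rcan1 was most like Laptm4b (0.944), Ralgds (0.940) and Mmp19 (0.938). Rgs5 was most like Snhg8 (0.873), Mrps6 (0.843) and Mdk (0.838), and Rgs2 most like Zfp704 (0.869), Arrdc3 (0.867) and Samd12 (0.850). Between members r was highest for Rgs2 and Rcan1, at 0.500, and was -0.129 for Agtrap and Rgs2.

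The levels were also taken within cells classed by sex-linked transcripts, with the limit given above for the Xist cells. In cells with UMIs of Y-linked genes but none of Xist, Agtr1b was at 4.02 CPM in tag 1 (54 UMIs), 3.51 in tag 3 (30), 0.861 in tag 2 (1) and 2.57 in tag 4 (6). Agtr2 was at 1.64, 0.351, 6.88 and 2.57 CPM in the same tags (22, 3, 8 and 6 UMIs). The Agtr1b level of tag 4 was above its 1.06 CPM over all cells, but 6 UMIs are too few to tell the 2 levels apart. Rcan1 in these cells was at 12.4 and 11.6 CPM in tags 1 and 3 and 22.4 and 30.9 in tags 2 and 4. Agtrap was at 31.7 CPM in tag 1 and 14.6 to 18.4 in the other tags. Among cells with Xist and no Y-linked UMIs, of which tag 1 had 154 and tag 3 had 94, Agtr2 was at 5.82 CPM in tag 1 (9 UMIs), 1.87 in tag 3 (2), 3.54 in tag 2 (12) and 4.48 in tag 4 (47). Rcan1 was at 19.4, 22.4, 20.6 and 23.6 CPM in tags 1, 3, 2 and 4, and Rgs5 at 14.2, 20.6, 11.5 and 10.2 CPM. Agtrap was at 16.2, 17.8, 17.7 and 18.3 CPM. Among these cells both old tags were less than 1.5-fold above tag 1, or below it, for Agtr2, Rgs5 and Rcan1, and Agtrap was not highest in tag 1.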

How the data were processed

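VSMC cultures were hashed with TotalSeq-A antibodies, mixed and sequenced as 1 droplet library, deposited as 1 matrix that holds both the RNA and the hashtags of each barcode. Its values are UMI counts as deposited, from Cell Ranger 4 per the file headers, neither filtered for cells nor normalized by the authors. Seurat is also named in the submitters' processing notes. A build or annotation behind the counts was not given in the sources used here. Positions were looked up by Ensembl identifier in GENCODE vM21 (GRCm38), where 99.6% of identifiers matched, and promoters by symbol in RefSeq (GRCm38.p6), where 9 of the 10 members matched. Agtr1a was not matched.

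A cell had at least 200 genes and 2218 UMIs, the latter being the UMIs at percentile 99 among the 10000 deepest barcodes, divided by 10. The study states no thresholds for cells. Hashtag cutoffs were 36, 52, 61 and 41 UMIs, from HTODemux in Seurat 5.3.0 (R 4.3.3) at the 0.99 quantile, and a cell needed exactly 1 hashtag above its cutoff. Separation was weaker for tags 2 to 4, where cells of the tag had medians of 76, 113 and 67 hashtag UMIs and untagged cells 15, 31 and 20. For tag 1 the medians were 364 and 10. Scrublet (scanpy 1.11.5, expected rate 0.1) called 3058 cells (23.4%) doublets, and they were kept except where stated. Clusters used 2000 variable genes without the 10 members, 30 components, 20 neighbours and resolution 0.8, and a cluster was named where at least 3 markers of a list were 2-fold above other cells and 1 was among its top 10 genes.

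CPM had exact Poisson intervals, ratios the exact binomial interval of the 2 counts and shares Clopper-Pearson intervals, all at 95% and for counting error only. UMI totals per tag ran from 5577355 to 24120561, and a count of 0 was taken to allow 3 counts. Cells are not replicates, so no p-value was computed. Ratio intervals were tried on simulated independent Poisson counts, the model they assume, so clumping of UMIs in cells was not covered. Free RNA (5.65% of UMIs) was estimated from Xist in 1166 cells with at least 2 Y-linked UMIs in tags 1 and 3, and its profile from 1299325 barcodes with 1 to 100 UMIs.

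The members, gene lists and comparisons were chosen with earlier results of these data known. Genes named were the 10 members, in each list the 4 genes with the largest ratio in each comparison among those with at least 5 CPM and receptors of the list at 0, the 3 genes most like each member above 5 CPM across clusters (among genes with at least 20 CPM), Piezo1 and the markers. A gene that this rule names is not reported here. Lnpep, Atp6ap2, F2r, Adora2b, Ednra, Ednrb, Ren1 and Xist were named in addition for their place in the system or as a check, after their values were seen. Alternatives were other cell filters, doublet removal, stricter and looser hashtag rules, thinning, cells with Y-linked UMIs and no Xist, free RNA removal, removal of dividing clusters, scaling by the median ratio and other resolutions. After seeing the data, HTODemux's own assignment and the removal of cluster 4 and of clusters 2 and 7 were added. The study's microarray, imaging and force measurements were not analysed here.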

Additional observations from a re-analysis of the deposited data

How the results depend on the processing

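The 6 counts of members past 1.5-fold were recomputed under 13 alternatives. For tag 3 against tag 1, 1 gene was higher in place of 0 without called doublets and with hashtag cutoffs at the 0.95 quantile, Rgs5 each time at 2.48 and 1.54. For tag 4 against tag 2, thinning gave 1 higher (Rgs2, 1.71) and 1 lower (Rgs5, 0.640), and cells with Y-linked genes but no Xist gave 1 higher (Rgs5, 2.74). The latter were 97 cells of tag 2 and 211 of tag 4. Apart from the removal of clusters 2 and 7, the share of all genes past 1.5-fold was not recomputed for these alternatives. Such counts therefore have no share of all genes beside them. Without clusters 2 and 7, tag 2 against tag 1 gave 0 higher and 0 lower, and for tag 3 against tag 1 the 1 lower gene was Rgs2 and no longer Agtrap. The other 71 of 78 recomputed counts were within 1.5 times the reported ones, and with 3 members higher in place of 2 for tag 2 against tag 1 the gene added was Rgs2. Of 340 recomputed ratios 317 lay within the interval of the reported ratio. The dividing clusters left out were 1, 6 and 7. The percentage of genes past 1.5-fold in tag 4 against tag 2 was 1.19% higher and 0.821% lower at 50 CPM or more, and 9.23% and 12.6% with at least 1 UMI in each tag as the only filter. The highest Rgs5 level of a cluster was 13.3 CPM at resolution 0.1 and 14.7 at 0.4, beside 18.8. Depth limits Agtr1a, Agt and the receptors of tag 2, which rest on 0 to 32 UMIs. No paired analysis was possible because each tag counts as 1 sample with no replicates.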

Other observations

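The cells without a tag, which entered no comparison, had receptor and Rgs5 levels nearer those of tags 2 and 4 than those of tags 1 and 3. Their 5307 cells had Agtr1b at 1.17 CPM (0.861 to 1.55), Agtr2 at 6.06 (5.33 to 6.86), Rgs5 at 10.2 (9.29 to 11.3), Rcan1 at 18.7 (17.4 to 20.0), Rgs2 at 16.9 (15.7 to 18.2) and Agtrap at 16.1 (14.9 to 17.4). Xist was at 497 CPM among them. The 1068 cells with more than 1 tag had Agtr1b at 1.67 CPM (1.04 to 2.52) and Agtr2 at 2.43 (1.66 to 3.42), between the values of tags 1 and 2. Among near-empty barcodes Agtr2 was at 2.86 CPM (1.05 to 6.23) on 6 UMIs, beside 3.74 CPM over all cells.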
